A study of Mus musculus with 9 samples.

Results

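The spliceosome removes introns from messenger RNA precursors, and most of the genes described here encode its core proteins. The genes are the protein-coding ones of GENCODE M21 whose symbols begin Snrp, Sf3a or Sf3b, or consist of Lsm or Prpf followed by digits. The rule, which uses names and no measured value, took 40 of the 54281 genes in the table. All 40 are referred to as spliceosome genes. Among them are 4 LSm genes (Lsm1, Lsm10, Lsm11 and Lsm12) taken by name that lie outside the LSm ring of U6. RNA of lung macrophages from wild-type female mice (Jackson Labs, 12 weeks old) was sequenced from total RNA libraries. The air group (n = 3) breathed air in a whole-body chamber, and the 24 h and 72 h groups (n = 3 each) breathed ozone, an oxidant air pollutant, at 0.8 ppm for 3 h and were killed 24 h or 72 h after it. All 9 libraries came from unmodified mice, and the labels do not say when the air mice were killed. Cells were washed from the air spaces by lavage while the lung was massaged, and no sort is given, so each library is a mixture weighted by how many cells of each kind were washed out. In such bulk libraries fewer cells of a type and less RNA per cell cannot be told apart.

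Splicing is carried out by small nuclear ribonucleoprotein particles (snRNPs), each built on a short nuclear RNA named U1, U2, U4, U5 or U6. U1, U2, U4 and U5 each carry a ring of Sm proteins, and U6 carries a related ring of LSm proteins. U1 recognises the start of an intron, and U2, with its SF3a and SF3b complexes, recognises the branch site near the end of the intron. U4, U5 and U6 then join as a tri-snRNP that holds several Prpf proteins, and rearrangement of this assembly forms the catalytic centre. Almost all intron-containing genes of every tissue need this machinery, and macrophages are no exception.

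Libraries held 47095543 to 60248305 counts. Levels are given as CPM, which divides counts by library size after the TMM correction for composition. Of the 40 genes, 39 passed the filter on low counts and were tested among 15713 genes with edgeR's quasi-likelihood test. A gene is referred to as called where its p, adjusted by the Benjamini-Hochberg method over all 15713 genes, was under 0.05, and changes are log2 fold changes ± SE. The spliceosome genes took 0.248 to 0.266% of all counts in air, 0.273 to 0.291% at 24 h and 0.241 to 0.246% at 72 h. All 14 alveolar macrophage markers were above 0 in every library, with sums of 32500 to 34900 CPM in air, 22300 to 30800 CPM at 24 h and 25700 to 30400 CPM at 72 h, so that every ozone library lay below every air library. Of these 14 genes 3 (Ear1, Krt79 and Marco) were called lower than air at 72 h, and 12 were below air at 24 h with 0 called. Car4 and Ctsk had every 72 h library above every air library, without being called, and Car4 every 24 h library as well. For 72 h against 24 h 1 of the 14 was called higher and 0 lower. Without 24 h replicate 2 and 72 h replicate 1, 4 were called lower than air at 72 h and 1 higher. Chil3 alone gave 14800 to 24800 CPM of the sums. Of 11 lung epithelium markers 5 (Cldn18, Krt8, Krt18, Ager and Aqp5) were called higher at 72 h than in air and than at 24 h, and Cldn18, a tight junction gene, stood at 0.571 to 0.981 CPM in air and 7.76 to 14.4 CPM at 72 h. Summed, the 11 overlapped between groups, at 232 to 266 CPM in air, 229 to 319 CPM at 24 h and 232 to 290 CPM at 72 h. The part of these markers in the spliceosome results was not tested. The library labelled 24 h replicate 2 and the one labelled 72 h replicate 1 stood apart. Their summed levels of 12 B cell markers were 1560 and 894 CPM, against 2.96 to 13.2 CPM in the other 7, and those of 8 serous cavity macrophage markers were 576 and 758 CPM, against 4.70 to 8.26 CPM. Sums of 12 T cell markers were 853 CPM in 24 h replicate 2 and 225 to 257 CPM in the others. Cd2 alone gave 190 to 251 CPM of these sums. Each of the other T cell markers was higher in 24 h replicate 2 and 72 h replicate 1 than in the other 7 libraries. Cd3e stood at 37.4 and 7.41 CPM in them, against 0.203 to 1.28 CPM. Sums of 7 erythroid markers were 2910 and 2510 CPM in these 2 libraries, 855 CPM in 24 h replicate 1 and 12.2 to 143 CPM in the other 6. Genes of the mitochondrial genome held 5.25% of counts in 24 h replicate 2 and 6.18% in 72 h replicate 1, against 2.71 to 3.07% elsewhere. Counts of called genes are therefore also given without these 2 libraries.

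The spliceosome genes were lower at 72 h than at 24 h after ozone, and air lay between. Between 72 h and 24 h, 31 of the 39 genes were called lower, where 12.8% of all genes tested were, and 1 was called higher, where 5.39% of all genes were. The median change of the 39 genes was -0.43 on the log2 scale, a level 26.0% lower, against -0.03 over all genes tested. In 33 of them every 72 h library lay below every 24 h library, which held for 22.7% of all genes. Every 72 h library had a median below the air mean, at -0.23, -0.25 and -0.20, and each 24 h library one above it, at 0.14, 0.24 and 0.12. Group means ran 24 h, air, 72 h from high to low in 31 genes. Another 4 genes ran air, 24 h, 72 h, and 1 ran 24 h, 72 h, air. Prpf39, Prpf8 and Sf3b1 were the 3 genes with their highest mean at 72 h.

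**Figure D1:**
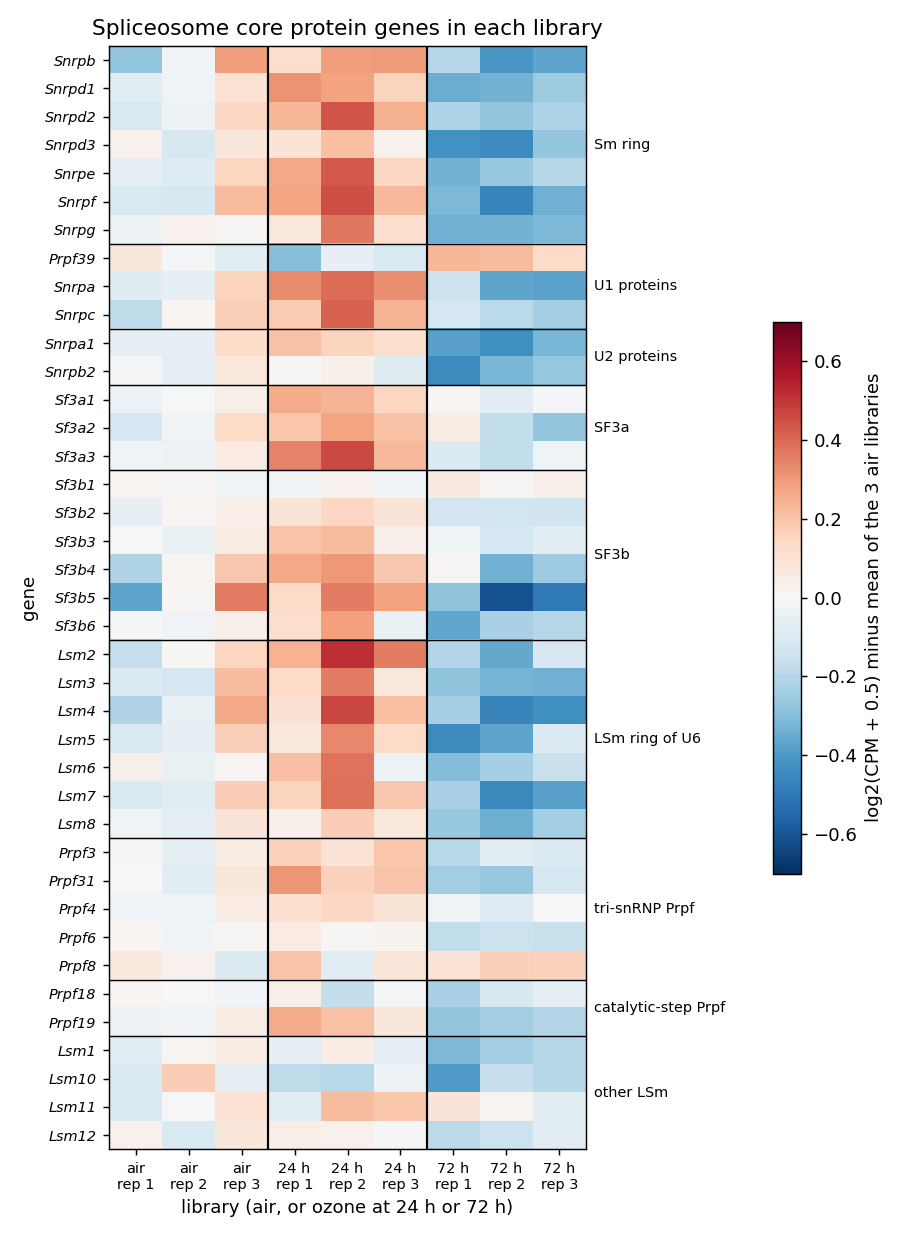
Each row is a spliceosome gene and each column a library, and colour gives log2(CPM + 0.5) minus the mean of the 3 air libraries, with lines between the groups and the roles. Most rows are red in the 24 h columns and blue in the 72 h columns, with medians over the 39 genes of 0.12 to 0.24 and -0.25 to -0.20, while Prpf39 runs the other way.

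Relative to air, the 2 time points lay on opposite sides. At 24 h none of the 39 genes was called with edgeR, where 0.00636% of all genes tested were, that is 1 gene. At an unadjusted p under 0.05, 16 were higher and 0 lower, and 8.68% of all genes were higher by that rule. The median was 0.19, a level 14.0% higher, against 0.01 for all genes. In 16 genes the 3 libraries at 24 h all lay above the 3 air libraries, as they did in 10.4% of all genes. DESeq2 called 5 of the genes higher (Sf3a1, Sf3a3, Snrpa, Snrpd1 and Snrpd2) where it called 2.4% of all genes tested higher, and limma voom called 0.

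At 72 h 6 of the 39 genes were called lower than air, where 3.77% of all genes were, and 0 were called higher, where 1.71% of all genes were. The 6 were Lsm8, Snrpa1, Snrpb2, Snrpd1, Snrpd3 and Snrpg, and the median of the 39 was -0.24, a level 15.5% lower. In 23 genes all 3 libraries at 72 h lay below all 3 in air, which held for 22.1% of all genes. Prpf39 and Prpf8 were the 2 with all 72 h libraries above air, which held for 2744 of the 15713 genes tested. The 6 calls depended on single libraries. Each was made in 1 of the 9 fits that leave out 1 library, the fit without 24 h replicate 2, and no spliceosome gene was called without air replicate 1, 2 or 3, 24 h replicate 1 or 3, or 72 h replicate 1, 2 or 3. Without the 2 libraries that stood apart 6 genes were called lower, of which 4 (Snrpa1, Snrpb2, Snrpd3 and Snrpg) were among those above. Of 15550 genes tested both with and without those 2 libraries, 419 were called lower and 694 higher without them. Upper-quartile scaling left 0.

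The 72 h against 24 h comparison had the largest median of the 3 and the most calls. Without the 2 libraries that stood apart, 21 genes were called lower and 1 higher, all of them called in the same direction with all 9 libraries, and the median was -0.37. Of 15550 genes tested both with and without those 2 libraries, 1339 were called lower and 1033 higher without them. Without 72 h replicate 2, 8 spliceosome genes were called, against 340 of all genes. Without 24 h replicate 1 there were 17, against 1055, and without 72 h replicate 3 there were 21, against 1284. The genes called in each of the 9 fits that leave out 1 library were Prpf19, Sf3a3, Snrpa, Snrpa1, Snrpd1, Snrpd2, Snrpd3 and Snrpg. A joint test for any difference among the 3 groups called 24 of the 39 genes, where 13.2% of all genes were. That number was 0 without 24 h replicate 1, 72 h replicate 2 or 72 h replicate 3, 4 without 72 h replicate 1, 13 without air replicate 2, and 14 both without 24 h replicate 3 and without the 2 libraries that stood apart.

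Genes of the cell cycle also fell between 24 h and 72 h. A list of 20 such genes, among them Mki67, Top2a and the Mcm helicase subunits, summed to 1270 to 1670 CPM in air, 2060 to 2170 CPM at 24 h and 1240 to 1420 CPM at 72 h. Of the 20, 19 were called lower at 72 h than at 24 h, against 12.8% of all genes tested, with a median of -0.70, and 16 were without the 2 libraries that stood apart. Against air the median of the 20 was 0.54 at 24 h, with 0 called. At 72 h it was -0.185, with 1 called lower, where 3.77% of all genes were. In 1 of the 20 every 72 h library lay below every air library, against 23 of the 39 spliceosome genes and 22.1% of all genes. The part of the cell cycle genes in the spliceosome result was not tested. Single libraries also differed within groups. The highest value of 22 of the 39 genes was in 24 h replicate 2, and air replicate 3 was the highest air library for 31. The same air library had the highest cell cycle sum in air.

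**Figure D2:**
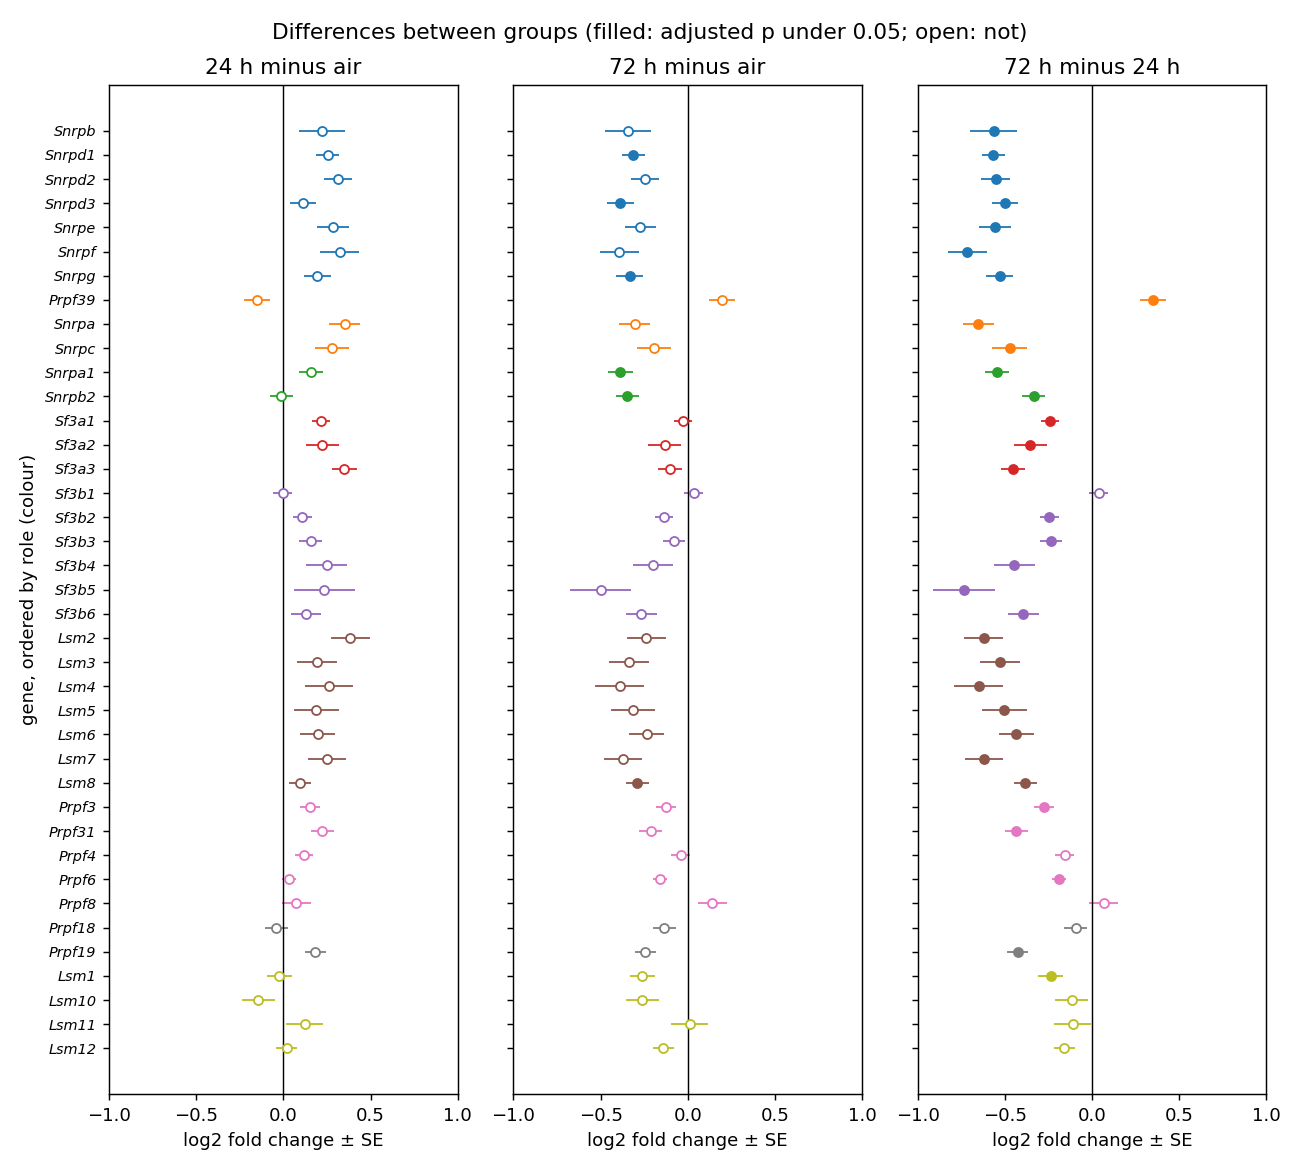
Log2 fold changes ± SE of the 39 tested genes in the 3 comparisons, ordered and coloured by role, with filled points for an adjusted p under 0.05. No point is filled for 24 h against air, 6 are filled below 0 for 72 h against air, and 31 below 0 and 1 above 0 (Prpf39) for 72 h against 24 h.

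Promoters are shown for 3 of the genes called lower at 72 h and for 2 that did not fall, since most of the family moved together. The window runs 250 bases before to 50 bases after a RefSeq start on GRCm38.p6, and 32 of the 40 genes had at least 1 such window. Letters of 7 motifs were searched after the calls were known, and the ETS motif is described first because its share differed most from that of other genes. A core ETS motif (CCGGAAG on either strand), the letters read by ETS family transcription factors, was in the window of 14 of these 32 genes, or 43.8%. It was in 2027 of 10110 tested protein-coding genes with a window, 30.8% of the 1606 protein-coding genes called lower at 72 h than at 24 h, and 9.9% of all 27025 genes with a window. Of the 32 spliceosome genes with a window, 25 were called lower at 72 h than at 24 h, and all 14 were among these. The rest of the 25 were called lower without holding the ETS letters. The motif was picked out with the calls known, and its link with the calls was not tested. Of 18 matches, 15 began within 100 bases of the start. The GC box (GGGCGG) was in 59.4% of the spliceosome genes and 66.9% of tested protein-coding genes, the CCAAT box (CCAAT) in 40.6 and 43.0%, the E-box (CACGTG) in 9.4 and 11.4%, the TATA box (TATAAA) in 9.4 and 8.9%, the short CREB site (TGACG) in 34.4 and 34.5%, and the NRF1 palindrome in 0 and 2.4%, each on both strands. A match is a description of the letters and was not tested for binding. The first 3 genes shown were picked because they hold the ETS letters, with RefSeq and GENCODE starts within 30 bases of each other and the smallest p for 72 h against 24 h, and Prpf39 and Prpf8 because they did not fall. These choices were made and revised after the values and windows were seen, so the stretches illustrate the letters and support nothing. The stretches printed end at most 30 bases past the start, and capitals mark every match to 5 of the motifs (ETS, GC box, CCAAT box, E-box and TATA box), with a pair of overlapping ETS matches in Snrpe. The stretch of Prpf19 is chr19:10894981-10895260 on the plus strand, that of Snrpe chr1:133610262-133610530 on the minus strand, and that of Snrpb2 chr2:143062819-143063068 on the plus strand. For Prpf39 it is chr12:65036084-65036362 and for Prpf8 chr11:75486527-75486806, both on the plus strand, and neither holds the ETS letters.
Prpf19: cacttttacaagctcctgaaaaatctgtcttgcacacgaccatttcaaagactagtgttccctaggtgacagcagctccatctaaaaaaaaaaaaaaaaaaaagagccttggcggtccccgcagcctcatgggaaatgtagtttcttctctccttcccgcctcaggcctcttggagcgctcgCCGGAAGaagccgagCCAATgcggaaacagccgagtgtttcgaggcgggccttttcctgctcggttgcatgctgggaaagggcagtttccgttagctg
Snrpe: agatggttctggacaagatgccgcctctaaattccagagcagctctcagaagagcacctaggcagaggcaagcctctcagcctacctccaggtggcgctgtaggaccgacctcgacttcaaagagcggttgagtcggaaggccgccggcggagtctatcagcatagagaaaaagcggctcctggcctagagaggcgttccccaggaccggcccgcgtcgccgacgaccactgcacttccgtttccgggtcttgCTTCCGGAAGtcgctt
Snrpb2: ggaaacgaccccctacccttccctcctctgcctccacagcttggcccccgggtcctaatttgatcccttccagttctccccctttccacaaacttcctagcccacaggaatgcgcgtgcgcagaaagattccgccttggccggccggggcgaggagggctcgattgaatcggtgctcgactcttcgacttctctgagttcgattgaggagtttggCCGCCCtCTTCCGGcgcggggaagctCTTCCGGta
Prpf39: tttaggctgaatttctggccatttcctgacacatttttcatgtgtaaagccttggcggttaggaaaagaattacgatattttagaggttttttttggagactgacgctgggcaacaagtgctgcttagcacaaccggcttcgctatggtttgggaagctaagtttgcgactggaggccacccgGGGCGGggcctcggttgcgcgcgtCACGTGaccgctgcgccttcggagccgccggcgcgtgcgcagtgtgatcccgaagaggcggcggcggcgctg
Prpf8: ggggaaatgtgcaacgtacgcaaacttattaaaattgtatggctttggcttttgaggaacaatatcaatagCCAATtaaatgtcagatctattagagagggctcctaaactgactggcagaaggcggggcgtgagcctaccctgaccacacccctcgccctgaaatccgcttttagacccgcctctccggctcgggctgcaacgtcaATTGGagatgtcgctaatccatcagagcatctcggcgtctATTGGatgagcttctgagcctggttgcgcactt

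The tested genes of the Sm ring fell between 24 h and 72 h. The ring is made of 7 proteins that close around the snRNA, and all 7 tested genes were called lower, with a median of -0.56 and a range of -0.72 to -0.50. Against air their median was 0.25 at 24 h, with 0 called, and -0.33 at 72 h, with Snrpd1, Snrpd3 and Snrpg called. Without the 2 libraries that stood apart, 6 of the 7 were called lower at 72 h than at 24 h, and Snrpb was the exception.

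Snrpd1 (chr18:10617775-10642079 on GRCm38) was measured at 41.1, 42.4 and 46.4 CPM in the air libraries, 53.9, 52.7 and 48.3 at 24 h and 33.9, 34.3 and 36.4 at 72 h. All 24 h libraries lay above air and all 72 h libraries below it, and from 24 h to 72 h the level fell by 0.57 ± 0.07 (adjusted p = 0.00433). Snrpd2, whose protein pairs with that of Snrpd1 before the ring closes, stood at 35.1, 37.0 and 41.8 CPM in the air libraries, 44.6, 51.5 and 45.1 at 24 h and 32.5, 31.2 and 32.5 at 72 h. The 3 groups did not overlap, and the gene fell by 0.55 ± 0.08 (adjusted p = 0.00669) between the times. Snrpd3 (chr10:75517551-75537381), the partner of SmB in the ring, stood at 59.4, 53.8 and 61.6 CPM in the air libraries, 62.1, 67.4 and 59.5 at 24 h and 43.2, 42.5 and 48.1 at 72 h. Air and 24 h overlapped while 72 h lay below both, with -0.39 ± 0.08 (adjusted p = 0.0321) against air and a change between the times of -0.50 ± 0.08 (adjusted p = 0.00728).

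Snrpe gave 39.9, 39.1 and 46.1 CPM in the air libraries, 50.2, 56.1 and 46.1 at 24 h and 32.9, 34.5 and 36.1 at 72 h. Its 72 h libraries lay below all others, and air and 24 h met in 1 library of each, air replicate 3 and 24 h replicate 3. Snrpf, which joins Snrpe and Snrpg in a subcomplex during assembly, gave 14.1, 14.0 and 17.8 CPM in the air libraries, 18.6, 20.98 and 17.9 at 24 h and 12.1, 10.9 and 11.9 at 72 h. The groups did not overlap, and Snrpf fell by 0.72 ± 0.11 (adjusted p = 0.00774) from 24 h to 72 h, the steepest change in the ring. Snrpg (chr6:86371304-86379328) gave 38.4, 40.2 and 39.7 CPM in the air libraries, 41.5, 51.1 and 42.8 at 24 h and 31.1, 31.2 and 31.6 at 72 h. The groups did not overlap, 24 h replicate 2 was the highest library, and the level at 72 h against air was -0.33 ± 0.08 (adjusted p = 0.045).

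Snrpb (chr2:130171414-130179403), which encodes SmB and SmB', was the Sm gene with the widest spread in air. It stood at 118, 142 and 176 CPM in the air libraries, 156, 176 and 176 at 24 h and 125, 108 and 111 at 72 h. Air overlapped both other groups, 24 h lay above 72 h in every library, and the gene fell by 0.56 ± 0.13 (adjusted p = 0.0242) between the times. Snrpn encodes SmN, the imprinted copy of SmB used in brain, and had few counts under its own entry. Its exons overlap those of Snurf and Gm38393 on the same strand. How reads were shared with these genes was not examined. Its libraries held 0 to 7 counts, or 0.0985, 0.0169 and 0.0832 CPM in the air libraries, 0.0400, 0.146 and 0 at 24 h and 0.0597, 0.0368 and 0.0815 at 72 h, too few to test. The coding sequences of Snrpb and Snrpn were identical at 558 of 693 aligned bases (80.5%), and how reads that fit both were divided is not stated.

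Of the genes of U1 proteins, Snrpa and Snrpc fell and Prpf39 rose. Snrpa encodes the A protein of U1, which binds a stem-loop of the U1 RNA, and stood at 23.4, 23.7 and 27.8 CPM in the air libraries, 31.4, 32.8 and 31.3 at 24 h and 22.4, 19.1 and 19.1 at 72 h. All 24 h libraries were above air and all 72 h libraries below it. Snrpa fell by 0.65 ± 0.09 (adjusted p = 0.00599) from 24 h to 72 h, a level 36.4% lower, and it was higher than air at 24 h by 0.35 ± 0.09 without being called (adjusted p = 0.164). Snrpa shares exon sequence with a gene on the other strand, and no source used here says whether counting took account of strand. Snrpc encodes the C protein of U1, which stabilises pairing of U1 with the start of the intron, and fell by 0.47 ± 0.10 (adjusted p = 0.0165) over the same interval.

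Prpf39 (chr12:65036333-65063386) was the only spliceosome gene called higher at 72 h than at 24 h, and it was picked out here after its values were seen. Its protein is associated with U1 and with the choice of alternative exons. It stood at 66.7, 62.8 and 59.8 CPM in the air libraries, 51.2, 60.6 and 58.4 at 24 h and 74.3, 73.5 and 69.2 at 72 h. The 72 h libraries lay above all 6 others, and air and 24 h overlapped. The change between the times was 0.35 ± 0.07 (adjusted p = 0.016), a level 27.5% higher, and it was 0.20 ± 0.07 against air at 72 h, which was not called (adjusted p = 0.14). Without the 2 libraries that stood apart the change between the times was 0.40, still called. Its exons overlap Fkbp3 on the other strand.

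**Figure D3:**
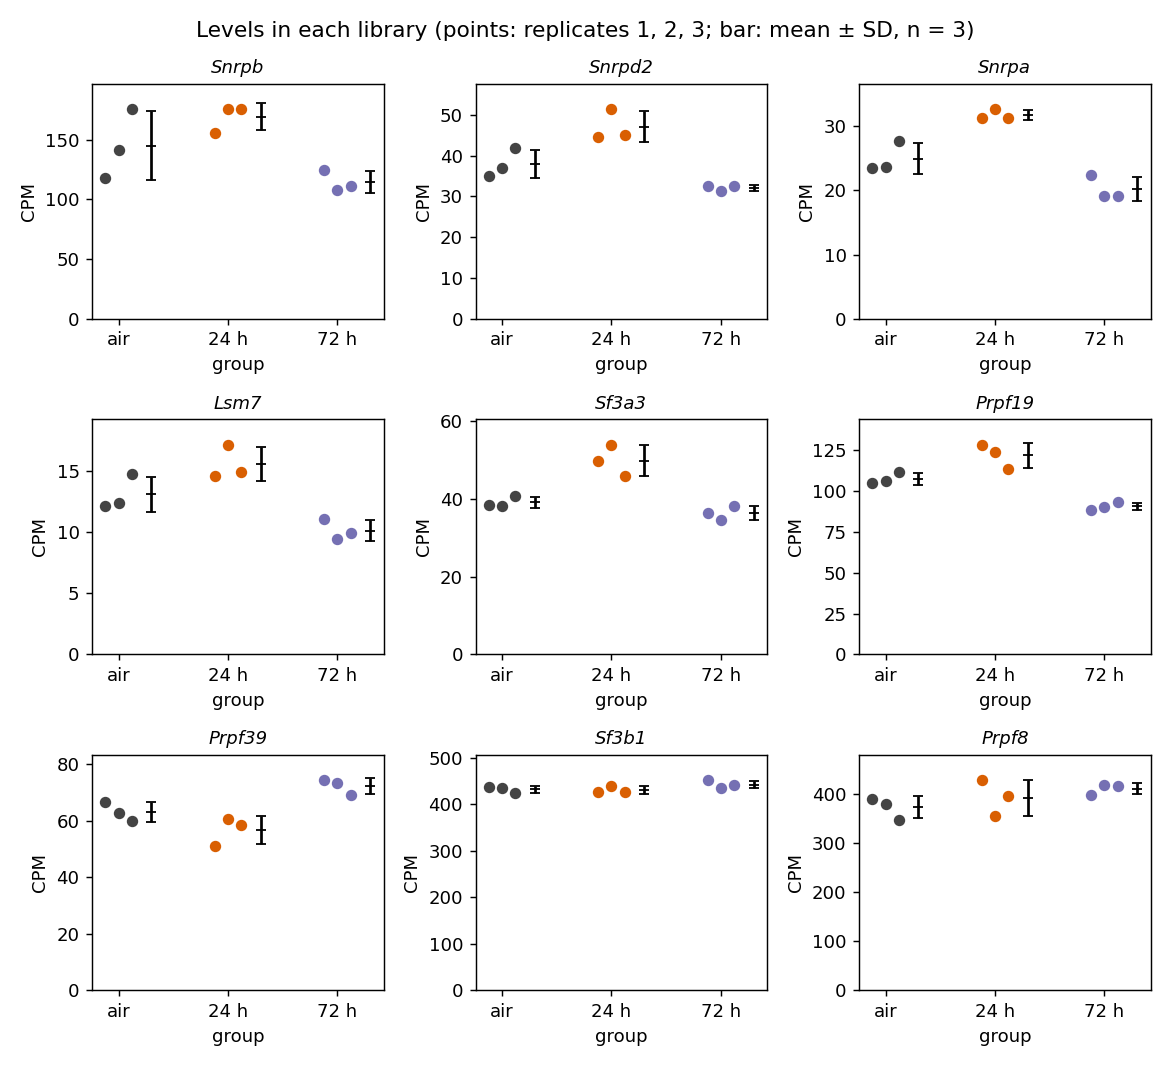
CPM of 9 spliceosome genes in each library, with points for replicates 1, 2 and 3 of air, 24 h and 72 h and a bar for the mean ± SD (n = 3), on axes that start at 0. Snrpb, Snrpd2, Snrpa, Lsm7, Sf3a3 and Prpf19 have every 72 h point below every 24 h point, Prpf39 has every 72 h point above, and Sf3b1 and Prpf8 overlap between 24 h and 72 h.

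Snrpa1 and Snrpb2 encode a pair of U2 proteins that together bind a stem-loop of the U2 RNA, and both were called lower than air at 72 h. Each of these calls against air was made in 1 of the 9 fits that leave out 1 library, and neither was made with upper-quartile scaling or the replicate block. Both were called without the 2 libraries that stood apart. For 72 h against 24 h both were called, 1 of them without those 2 libraries. Snrpa1 (chr7:66059003-66074587) stood at 25.3, 25.6 and 29.1 CPM in the air libraries, 30.8, 29.8 and 28.8 at 24 h and 20.3, 19.7 and 21.3 at 72 h. The 72 h libraries were the lowest of all, and air and 24 h overlapped through air replicate 3. Its level was -0.39 ± 0.07 (adjusted p = 0.0281) against air, and it fell by 0.54 ± 0.07 (adjusted p = 0.00571) from 24 h to 72 h. Snrpb2 (chr2:143063039-143072853) stood at 49.9, 47.9 and 52.8 CPM in the air libraries, 50.5, 51.4 and 47.4 at 24 h and 36.7, 40.1 and 41.6 at 72 h. Air and 24 h overlapped, with a difference of -0.01 ± 0.07 (adjusted p = 0.933), and 72 h lay below both, at -0.35 ± 0.07 (adjusted p = 0.0296) against air.

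The SF3a complex is a trimer that connects the U2 core to SF3b. All 3 genes were called lower at 72 h than at 24 h, with a median of -0.35, and all 3 stayed called without the 2 libraries that stood apart. At 72 h their median against air was -0.10 and no gene had its 72 h libraries separate from air, while at 24 h all 3 had every library above air, with a median of 0.22 and 0 called. Sf3a3 stood at 38.4, 38.1 and 40.7 CPM in the air libraries, 49.8, 53.9 and 45.8 at 24 h and 36.3, 34.6 and 38.2 at 72 h. The 24 h libraries lay above all others and 72 h overlapped air by 1 library. Sf3a3 fell by 0.45 ± 0.07 (adjusted p = 0.00756), and its 24 h level was higher than air by 0.35 ± 0.07 (adjusted p = 0.117). Sf3a1 stood at 74.1, 76.1 and 78.4 CPM in the air libraries, 91.1, 89.9 and 84.7 at 24 h and 77.0, 72.0 and 75.8 at 72 h. Here too 24 h stood alone, and 72 h lay within the range of air or just below it, at -0.02 ± 0.05 against air.

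The SF3b complex, which clamps the branch site, was uneven. Of its 6 genes 5 were called lower at 72 h than at 24 h, with a median of -0.32 over the 6, and 1 (Sf3b4) was called lower without the 2 libraries that stood apart. Sf3b5, the gene of the complex with the lowest level, had the steepest change of the family, -0.73 ± 0.18 (adjusted p = 0.0253), and also the widest SE. Sf3b1 (chr1:54985169-55027481), which encodes the large helical-repeat protein that encloses the branch site duplex, was the exception. It stood at 437, 434 and 423 CPM in the air libraries, 425, 439.8 and 426 at 24 h and 451, 434 and 441 at 72 h. The 9 libraries lay within 423 to 451 CPM, the groups overlapped, and the change between the times was 0.04 ± 0.06 (adjusted p = 0.682). Sf3b6, whose protein contacts the branch adenosine, stood at 48.3, 47.9 and 50.2 CPM in the air libraries, 53.1, 59.7 and 47.1 at 24 h and 37.8, 41.6 and 42.4 at 72 h. Every 72 h library was below every other library, and the gene fell by 0.39 ± 0.09 (adjusted p = 0.0185) between the times.

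The ring of U6 is made of LSm2 to LSm8. All 7 genes were called lower at 72 h than at 24 h, with a median of -0.53 and a range of -0.65 to -0.38, and 5 were called without the 2 libraries that stood apart. Lsm8, the subunit that sets this nuclear ring apart from its cytoplasmic form, stood at 25.2, 24.4 and 27.2 CPM in the air libraries, 26.2, 28.9 and 26.9 at 24 h and 21.2, 20.1 and 21.6 at 72 h. Its 72 h libraries were the lowest of all and air and 24 h overlapped, with -0.29 ± 0.07 (adjusted p = 0.0425) against air. Lsm2 stood at 12.8, 14.4 and 15.9 CPM in the air libraries, 17.0, 20.7 and 18.5 at 24 h and 12.3, 11.0 and 13.1 at 72 h. Its 24 h libraries were the highest of all and 72 h overlapped air, with a change between the times of -0.62 ± 0.11 (adjusted p = 0.01). Lsm7 stood at 12.2, 12.4 and 14.8 CPM in the air libraries, 14.6, 17.2 and 14.9 at 24 h and 11.1, 9.42 and 9.91 at 72 h. In that gene 72 h lay below every other library, air replicate 3 overlapped 24 h, and the level fell by 0.62 ± 0.11 (adjusted p = 0.0098) from 24 h to 72 h.

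Of the other 4 LSm genes 1 was called, in 72 h against 24 h, and 0 were without the 2 libraries that stood apart. Their median was -0.14 for 72 h against 24 h and -0.20 for 72 h against air. Lsm1 replaces Lsm8 in the cytoplasmic ring that promotes decapping of messenger RNA, and it was called lower at 72 h than at 24 h at -0.24 ± 0.07 (adjusted p = 0.049), in none of the fits that leave out 1 library. It stood at 15.2, 16.3 and 16.6 CPM in the air libraries, 15.4, 16.6 and 15.3 at 24 h and 12.8, 13.5 and 13.9 at 72 h. Every 72 h library lay below all others, and the difference from air was -0.26 ± 0.07 (adjusted p = 0.0657), not called. Lsm10 and Lsm11 belong to the U7 particle, which processes histone messenger RNA. Lsm10 stood at 26.4, 31.9 and 26.9 CPM in the air libraries, 25.0, 24.6 and 27.5 at 24 h and 21.3, 25.2 and 24.6 at 72 h. The highest library was air replicate 2, 24 h and 72 h overlapped, and every 72 h library lay below every air library, with -0.26 ± 0.10 (adjusted p = 0.138) against air. The change between the times was -0.12 ± 0.10 (adjusted p = 0.453). Lsm11 and Lsm12 were not called in any comparison.

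Among the Prpf genes of the tri-snRNP, 3 of 5 were called lower at 72 h than at 24 h, with a median of -0.19. Prpf31 stood at 61.8, 58.7 and 65.4 CPM in the air libraries, 76.8, 69.2 and 71.1 at 24 h and 52.2, 51.3 and 57.0 at 72 h. The 3 groups did not overlap, and Prpf31 fell by 0.44 ± 0.07 (adjusted p = 0.00728). Prpf3 of the U4/U6 particle was called at -0.28 ± 0.06 (adjusted p = 0.016), and Prpf6, which links U5 to U4/U6, at -0.19 ± 0.04 (adjusted p = 0.0176). Without the 2 libraries that stood apart Prpf31 and Prpf3 were called and Prpf6 was not (adjusted p = 0.0735). Prpf8, the large protein at the catalytic centre of U5, stood at 391, 381 and 348 CPM in the air libraries, 428, 355 and 395 at 24 h and 399, 419 and 416 at 72 h. The 24 h group spanned the range of all 9 libraries apart from the lowest, air replicate 3, the 72 h libraries lay above air, and the change between the times was 0.07 ± 0.08 (adjusted p = 0.629).

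Prpf19, the ubiquitin ligase that gives the Prp19 complex its name, was called lower at 72 h than at 24 h. It stood at 105, 106 and 111 CPM in the air libraries, 128, 124 and 114 at 24 h and 88.6, 90.5 and 93.0 at 72 h. The groups did not overlap, and the level fell by 0.43 ± 0.06 (adjusted p = 0.00617) from 24 h to 72 h. Prpf18, a factor of the second catalytic step, was not called, at -0.09 ± 0.07 (adjusted p = 0.368).

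Other genes of splicing were called lower more often than higher. Together 6 lists and the 7 genes just outside the naming rule (among them Prpf4b and Prpf38a) gave 131 genes, of which 53 were called lower and 5 higher at 72 h than at 24 h, where 12.8% and 5.39% of all genes tested were, with a median of -0.19. With the 2 libraries that stood apart left out, 36 were called lower and 5 higher, and not all of these 5 were called higher with all 9 libraries. The 16 genes of snRNP assembly by the SMN complex and methylosome had 9 called lower and a median of -0.32, and 5 called lower without those 2 libraries. Prmt5, the methyltransferase that modifies Sm proteins, fell by 0.42 ± 0.06 (adjusted p = 0.00683), and Clns1a, which presents Sm proteins to it, fell by 0.40 ± 0.06 (adjusted p = 0.00695). Genes of other snRNP proteins had 11 of 27 called lower, 0 called higher and a median of -0.21, and 6 called lower and 1 higher without the 2 libraries. Snu13, a U4 protein, fell by 0.63 ± 0.09 (adjusted p = 0.00599) and Snrnp27 fell by 0.31 ± 0.05 (adjusted p = 0.00847).

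Prp19 complex and catalytic step genes had 10 of 24 called lower, with a median of -0.19, and 7 without the 2 libraries. Those with the smallest p were Plrg1, which fell by 0.29 ± 0.05 (adjusted p = 0.00889), and Ctnnbl1, which fell by 0.33 ± 0.06 (adjusted p = 0.00889). Branch site and U2AF genes had 6 of 17 called lower and 1 higher, and 7 and 1 without the 2 libraries. Puf60 fell by 0.37 ± 0.05 (adjusted p = 0.00614) and Rbmx2 fell by 0.49 ± 0.09 (adjusted p = 0.00923). Genes of hnRNP proteins, which bind nascent RNA, had 9 of 25 called lower and 0 higher, and 7 and 1 without the 2 libraries. Hnrnpab fell by 0.53 ± 0.07 (adjusted p = 0.00586). Among SR proteins, which promote exon recognition, 6 of 15 were called lower and 3 higher, and 4 and 2 without the 2 libraries. Srsf10 fell by 0.26 ± 0.05 (adjusted p = 0.0104) and Srsf9 fell by 0.42 ± 0.09 (adjusted p = 0.0176). The 5 called higher were Srrm2 (0.47 ± 0.10, adjusted p = 0.0184), Ddx46 (0.40 ± 0.09, adjusted p = 0.0227), Son (0.34 ± 0.08, adjusted p = 0.0222), Srsf11 (0.28 ± 0.08, adjusted p = 0.0405) and Prpf4b (0.18 ± 0.05, adjusted p = 0.0488), named after their values were seen. Srsf11 (adjusted p = 0.0603) and Prpf4b (adjusted p = 0.069) were not called without the 2 libraries.

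Length of the transcript went with the size of the change. Across the 39 genes the Spearman correlation of the 72 h against 24 h log2 change with median coding transcript length was 0.575, and across 12806 tested protein-coding genes it was 0.299. This was 1 of 5 gene properties compared with the change in each of 3 comparisons. For 72 h against 24 h the other 4 gave 0.647 for the longest coding transcript, 0.598 for all exons joined, 0.482 for the number of exons and 0.399 for mean CPM, against 0.387, 0.352, 0.216 and -0.03 over all tested protein-coding genes. For median length the values were 0.641 for 72 h against air and -0.35 for 24 h against air, 2 comparisons that share the air libraries. These are correlations across genes within the same 9 libraries, and genes are not independent replicates. A bound of 2000 bases between short and long transcripts was chosen with the changes known. Of the 24 spliceosome genes with transcripts under 2000 bases, 22 were called lower, where 23.2% of all short protein-coding genes were, and of the 15 longer genes 9 were, where 8.44% of long protein-coding genes were. The short genes had a median of -0.52 and the long ones -0.23. The long transcripts include Sf3b1 and Prpf8, which did not fall. Estimated counts that were not whole (beyond a tolerance of 0.05), as arise where reads are divided between sequences, occurred in 22 genes, with a median of -0.50, against -0.28 in the tested ones of 18 genes with whole counts, of which 13 were called lower.

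**Figure D4:**
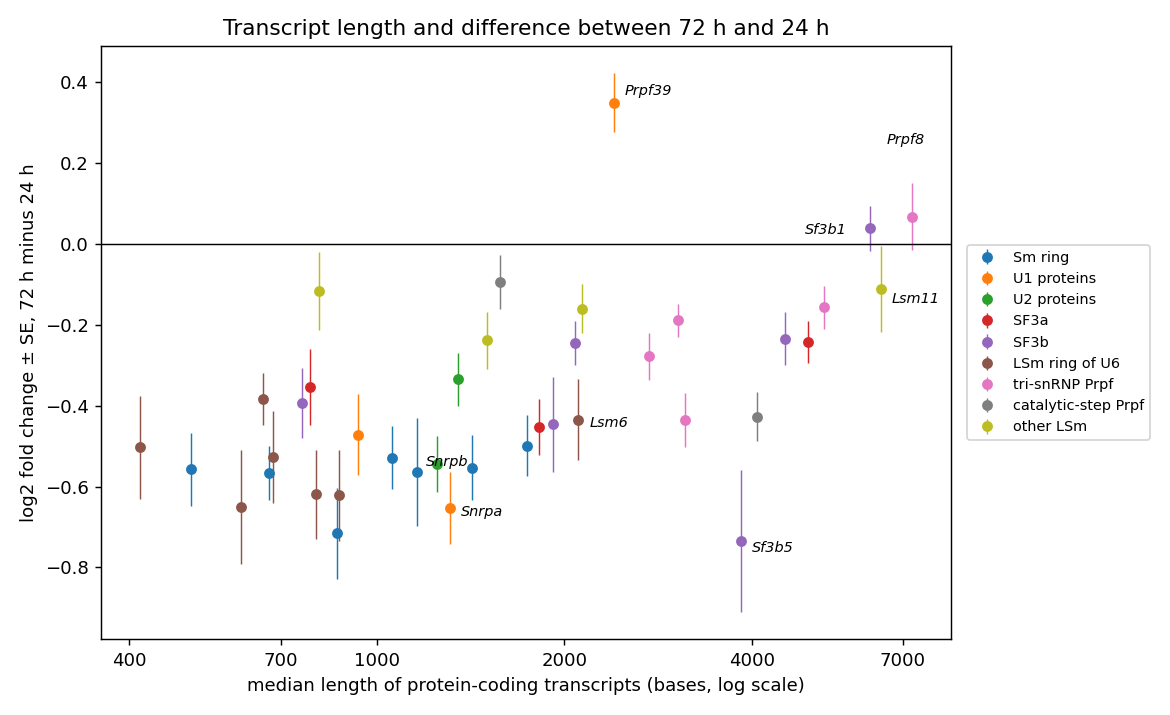
Each point is a spliceosome gene, with the median length of its protein-coding transcripts on a log axis, the log2 fold change ± SE from 24 h to 72 h on the vertical axis, and its role in colour. Genes under 2000 bases have a median of -0.52 and longer ones -0.23, with Prpf39, Prpf8 and Sf3b1 above 0 among the long genes.

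Levels between genes were compared as CPM per kilobase of median coding transcript length. By this length Snrpb was highest in air, at 125 ± 24.9 (SD, n = 3), next to Sf3b2 at 114 ± 4.14, and the ranges of the 2 overlapped. Snrpe followed at 82.9 ± 7.67, Sf3b1 at 69.6 ± 1.17 and Snrpd1 at 64.6 ± 4.15, within range of Sf3b6 at 64.5 ± 1.60. Lowest were Sf3b5 at 5.58, Prpf4 at 4.69, Lsm11 at 1.77 and Snrpn at 0.033. The 6 genes of SF3b, whose proteins form 1 complex, spanned 5.58 to 114 CPM per kilobase. Per kilobase of the longest coding transcript Snrpb was 125 and Sf3b2 73.3. Per kilobase of all exons joined Snrpb was 73.5, still the highest, Sf3b1 37.9 and Sf3b2 34.6, and the SF3b genes spanned 5.58 to 37.9, so a level per kilobase depends on which length is used.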

How the data were processed

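The table holds estimated counts per gene for 9 libraries, deposited by the authors without scaling to library size, and 80.5% of the values are whole numbers. Per the labels' protocols, a stranded total RNA kit was used after red cell lysis. Per the submitters' processing notes, the tools were Trimmomatic 0.39, FastQC, Salmon and DESeq2 on GRCm38.p6; other versions and the use of strand are not known from these sources. Symbols and lengths came from GENCODE M21, which matched 54107 of 54281 identifiers, and promoters came from RefSeq.

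Estimated counts were rounded and analysed in R 4.3.3 with edgeR 4.0.16: filterByExpr, TMM, 1 robust quasi-likelihood fit of all 9 libraries, and Benjamini-Hochberg adjustment over 15713 genes. SE is the log2 fold change over the square root of F. Libraries are separate mice by the series' text. The procedure was run on simulated data, whose outcome is not given here. Those data held no libraries like the 2 that stood apart, and the planted changes were larger than the median change of the members. No library was a copy of another in its own group, and pairs from different groups were not checked in this way. The members, gene lists, marker lists and alternatives were chosen with earlier results of these data known, and the promoter motifs, the promoters shown and the transcript length bound after the values here were seen. Values in every library are given for the 12 members with the smallest joint p, a roster with genes of each role and the 3 members with the smallest p in each comparison, and for other lists the 2 genes with the smallest p. Alternatives were other scalings, filters, tools (DESeq2 1.42.0, limma 3.58.1 voom), a replicate block, subsets of libraries, a wider naming rule and other lengths. Overlapping genes and near-identical copies are uncertain. For 12 members exons overlap another gene, for 10 on the other strand.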

Additional observations from a re-analysis of the deposited data

Results flagged for a closer look

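For 32 of the 39 tested spliceosome genes the difference from air at 72 h was not the same as the difference from air at 24 h, tested directly as 72 h against 24 h with edgeR (adjusted p under 0.05, 3 libraries a group). These are the calls already given for that comparison. By the same test 12.8% of all genes tested were called lower and 5.39% higher. Each value here is the log2 difference from air at 72 h minus that at 24 h, which the shared air libraries do not enter. In the Sm ring these were Snrpf (-0.72), Snrpd1 (-0.57), Snrpb (-0.56), Snrpe (-0.56), Snrpd2 (-0.55), Snrpg (-0.53) and Snrpd3 (-0.50). The LSm ring of U6 gave Lsm4 (-0.65), Lsm2 (-0.62), Lsm7 (-0.62), Lsm3 (-0.53), Lsm5 (-0.50), Lsm6 (-0.43) and Lsm8 (-0.38). Among U1 proteins they were Snrpa (-0.65), Snrpc (-0.47) and Prpf39 (0.35), and among U2 proteins Snrpa1 (-0.54) and Snrpb2 (-0.33). SF3a gave Sf3a3 (-0.45), Sf3a2 (-0.35) and Sf3a1 (-0.24), and SF3b gave Sf3b5 (-0.73), Sf3b4 (-0.45), Sf3b6 (-0.39), Sf3b2 (-0.24) and Sf3b3 (-0.23). For the tri-snRNP they were Prpf31 (-0.44), Prpf3 (-0.28) and Prpf6 (-0.19). The remaining values were Prpf19 (-0.43) and Lsm1 (-0.24). Prpf39 alone was positive among the 32. Of the 32, 22 kept their call and direction without the 2 libraries that stood apart, and 8 were called in each of the 9 fits that leave out 1 library.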

How the results depend on the processing

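Median changes of the spliceosome genes kept their sign under all alternatives tried, at 0.13 to 0.20 for 24 h against air, -0.31 to -0.18 for 72 h against air and -0.46 to -0.38 for 72 h against 24 h when 1 library was left out, and -0.37 for the last without the 2 libraries that stood apart. Numbers of calls did not keep their size. With 1 library left out, spliceosome genes called were 0, 0 to 6 and 8 to 30 in the same order and 0 to 22 in the joint test, and all genes called were 0 to 2, 7 to 1625, 340 to 2499 and 15 to 2232.

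For 24 h against air, where 1 gene was called, all genes called were 0 without a filter, 0 with the replicate block, 0 with only the 6 libraries compared, 7 without the 2 libraries and 546 with DESeq2, which called 5 spliceosome genes. For 72 h against air, spliceosome genes called were 3 with DESeq2 size factors, 3 without a filter, 3 with a filter of 1 CPM, 0 with upper-quartile scaling, 0 with the replicate block and 13 with DESeq2, and all genes were 506, 270, 459, 299, 35 and 1894, against 860. For 72 h against 24 h the block gave 20 spliceosome genes and 1474 genes in all, against 32 and 2855, and no filter gave 1696 genes. The joint test gave 15 spliceosome genes and 1167 in all without a filter, 0 and 106 with the block, 14 spliceosome genes without the 2 libraries, and 3554 genes with DESeq2, against 24 and 2081. Same-numbered libraries had deviations from their group means correlated at -0.613 to 0.475, and not every library correlated best with its own number. The 2 libraries that stood apart, 24 h replicate 2 and 72 h replicate 1, correlated at 0.731. Deviations within a group of 3 depend on each other, so this check cannot tell whether the numbers mark pairs. The cause of the differences in calls was not tested.

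Some small values changed sign. For 24 h against air, Prpf18 was 0.0173 without the 2 libraries and -0.0899 to 0.0166 with 1 library left out, where Lsm12 was -0.0382 to 0.0536 and Snrpb2 -0.0513 to 0.0198, and Sf3b1 was 0.0025 with the 1 CPM filter. For 72 h against air, Lsm11 was -0.0092 without a filter, -0.0103 without the 2 libraries and -0.0537 to 0.0698 with 1 library left out. Prpf4 was 0.0140 with upper-quartile scaling and 0.0072 with the 1 CPM filter, and Sf3a1 was 0.0284 and 0.0217 with these and -0.0577 to 0.0035 with 1 library left out. Per kilobase of joined exons Snrpb was 73.5 and Sf3b1 37.9. With 3 mice a group, small changes may go uncalled.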
